A study of Mus musculus with 5 samples.

Results

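Interferon-stimulated genes are the genes a cell transcribes after an interferon has bound its receptor. The 41 genes followed here were a named list: the 4 interferon receptor genes, components of the signalling and sensing machinery, and antiviral effectors. They were set beside all 21887 protein-coding genes of the GRCm38.p6 annotation. The mark measured was H3K27ac, acetylation of lysine 27 of histone H3, which is found at active promoters and enhancers. In these cells 34 of the 41 genes (82.9%, 95% Wilson interval 68.7 to 91.5%) had an H3K27ac peak within 1 kb of an end of the gene, against 36.2% of all protein-coding genes. Mx1 and Mx2 are annotated as transcribed pseudogenes, and of the 39 protein-coding genes of the list 32 (82.1%) had such a peak.

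The cells came from mouse bone marrow, were sorted as CD45.2+, lineage-negative, Sca1+ and Kit+, and are labelled HSC/MPP (haematopoietic stem cells and multipotent progenitors). Both Mll3 and Mll4, which encode histone methyltransferases that act at enhancers, were deleted in all of them, and the labels give no Cre driver, age or number of animals. H3K27ac was profiled in 4 libraries by ChIPmentation, in which Tn5 transposase adds the sequencing adapters to immunoprecipitated chromatin, and 1 input library of the same genotype served as the control. The authors deposited 1 pooled list of 22948 peaks, so no value of a single library, no replicate error, no read depth and no other genotype entered the comparisons, and whether the deletion changed any peak was not measured. No interferon treatment is given in the labels.

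Type I interferons signal through the Ifnar1 and Ifnar2 chains and type II interferon through Ifngr1 and Ifngr2. Janus kinases bound to the receptors phosphorylate STAT proteins. A complex that holds Stat2 and Irf9 then binds the interferon-stimulated response element (ISRE), and STAT dimers bind the gamma-activated site (GAS). In haematopoietic stem cells interferons are known to drive quiescent cells into division, and stem cells are known to transcribe part of the interferon-stimulated programme without infection.

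Among markers of the labelled cells a peak lay at an end of Ptprc, which encodes CD45 (signal value 10.84), Flt3 (6.58), Kit (5.66), Slamf1 (3.21) and Cd48 (2.45), and none lay at Cd34 or at Ly6a, which encodes Sca1. The signal value is the authors' enrichment ratio of H3K27ac over background, and all signal values and q-values of peaks here and below are theirs. The Cd48 peak was weak, with a −log10 q of 0.799, and would be lost at a q-value of at most 0.05. Of the B-cell markers, Cd79a (4.40) had a peak and Ms4a1 had none. None of the 4 T-cell, 2 NK-cell, 4 myeloid, 3 erythroid and 2 plasmacytoid dendritic cell markers had a peak at an end. The part of other cells in the peaks of the interferon-stimulated genes was not tested, and in a sorted population fewer marked cells and less mark per cell cannot be told apart.

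The strongest peak at an end of each of the 34 genes had a median signal value of 5.34 (interquartile range 3.55 to 6.98). Over the 7929 protein-coding genes with a peak at an end the median was 4.71 (3.52 to 6.55), so the ranges largely overlapped. A strongest peak of at least 4 was present at 24 of the 34 genes, beside 64.0% of all genes with a peak. The median width was 1424 bp (1040 to 2247 bp) against 1109 bp (685 to 1781 bp). Ranked among all 22948 peaks, the 34 peaks lay at a median percentile of 82.1, from 30.8 for Eif2ak2 to 97.7 for Parp14. All peaks, distal ones included, had a median signal value of 3.27. A peak of 4.71, the median of all genes with a peak, lay at percentile 76.2. No value of the 34 was above 9.92, while the highest signal value of the whole list was 34.05.

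**Figure D1:**
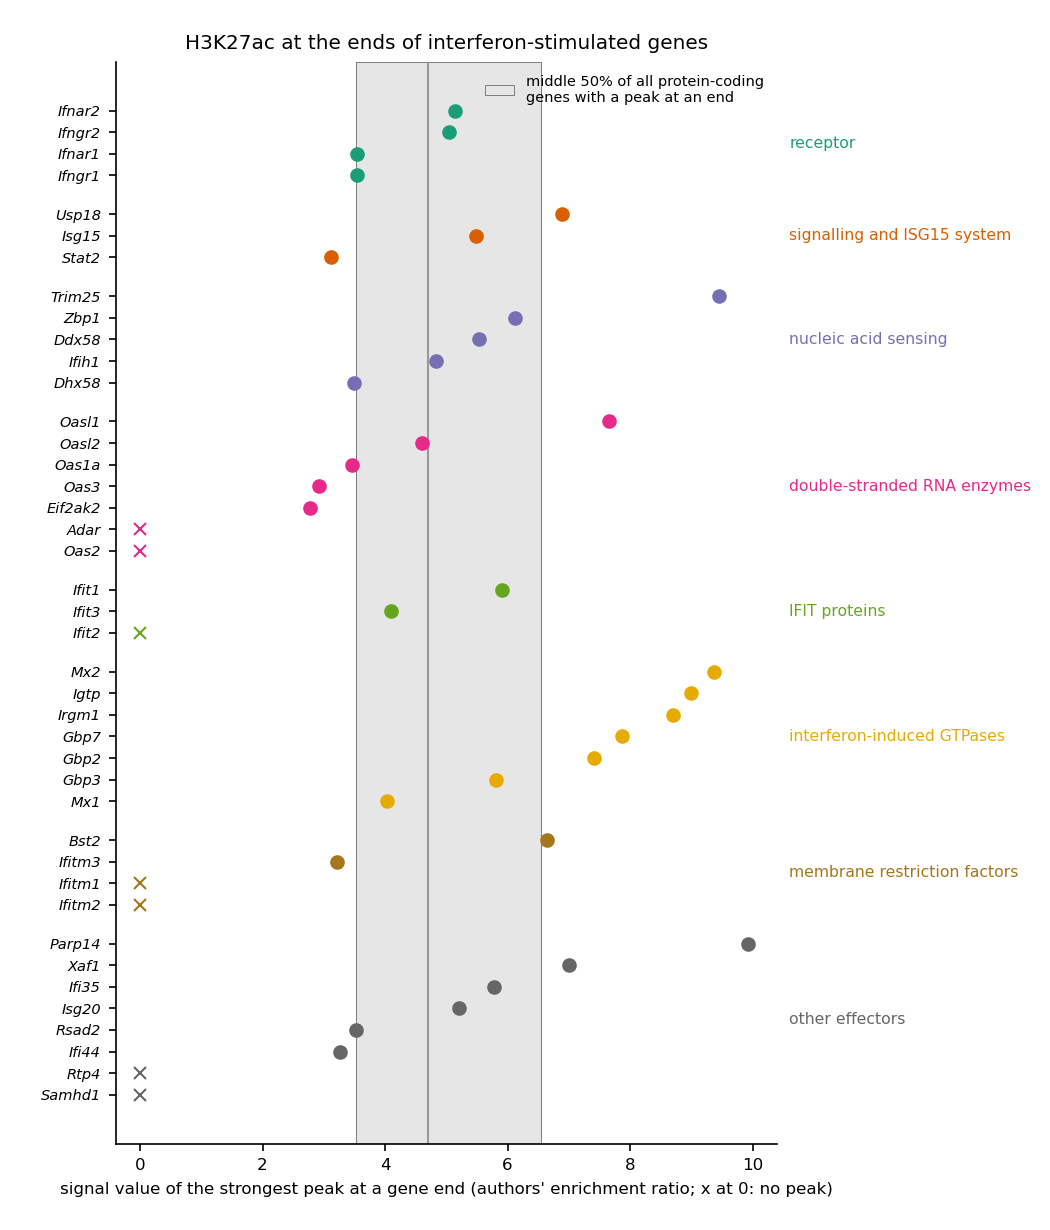
Signal value of the strongest H3K27ac peak within 1 kb of an end of each of the 41 genes, grouped by role (1 point per gene, 1 pooled peak list; crosses at 0 mark the 7 genes without such a peak). The grey band is the middle 50% of all protein-coding genes with a peak, from 3.52 to 6.55, and the grey line their median of 4.71. The GTPases reach from 4.04 to 9.37 and the membrane restriction factors hold 2 of the 7 crosses.

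RefSeq promoter sequences, from 250 bases before to 50 bases after an annotated start in GRCm38.p6, were at hand for 33 of the 41 genes. A peak lay within 1 kb of a start in 30 of these 33 (90.9%), against 38.0% of all protein-coding genes with a promoter entry. The ISRE was searched as GAAA, any 2 bases, GAAA on both strands, and the GAS as TTC, any 3 bases, GAA, a pattern that reads the same on both strands. An ISRE match was present in a promoter of 18 of the 33 genes (54.5%), against 3.94% of all protein-coding genes with a promoter entry. All promoter windows had the same length, and for a gene with several starts each window was searched. A GAS match was present in 13 of the 33 (39.4%), against 8.92%. The 2 patterns may overlap each other, and a match is a run of letters, not a shown binding site.

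The promoters of the 4 motif-bearing genes with the strongest peaks at their start belong to interferon-induced GTPases of the immunity-related (Igtp, Irgm1) and guanylate-binding (Gbp7, Gbp2) families. They are shown because they carry the motifs inside a strong peak, with ISRE and GAS matches in capitals. The starts of Trim25 and Oasl1 had peaks of 9.46 and 7.65, and their promoters held no match. The sequences, 5′ to 3′ on the strand of the gene, were Igtp at chr11:58199306-58199605 on the plus strand, Irgm1 at chr11:48871371-48871670 on the minus strand, Gbp7 at chr3:142530086-142530385 on the plus strand and Gbp2 at chr3:142620413-142620712 on the plus strand.
Igtp: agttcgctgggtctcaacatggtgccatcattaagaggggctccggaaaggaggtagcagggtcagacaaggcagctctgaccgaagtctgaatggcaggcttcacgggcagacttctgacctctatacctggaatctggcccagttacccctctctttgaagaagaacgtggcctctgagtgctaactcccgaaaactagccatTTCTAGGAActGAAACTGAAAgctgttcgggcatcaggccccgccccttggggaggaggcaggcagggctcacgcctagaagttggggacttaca
Irgm1: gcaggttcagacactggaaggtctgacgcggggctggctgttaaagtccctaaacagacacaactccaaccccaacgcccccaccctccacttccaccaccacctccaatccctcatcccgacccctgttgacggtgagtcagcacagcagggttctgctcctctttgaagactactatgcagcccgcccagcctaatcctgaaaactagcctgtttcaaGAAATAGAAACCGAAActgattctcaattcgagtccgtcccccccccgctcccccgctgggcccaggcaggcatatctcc
Gbp7: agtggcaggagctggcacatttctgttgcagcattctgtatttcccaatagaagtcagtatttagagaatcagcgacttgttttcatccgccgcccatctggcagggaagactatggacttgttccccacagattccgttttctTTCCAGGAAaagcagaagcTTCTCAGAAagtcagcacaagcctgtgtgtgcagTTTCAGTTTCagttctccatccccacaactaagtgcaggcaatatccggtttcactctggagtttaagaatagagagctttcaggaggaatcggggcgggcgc
Gbp2: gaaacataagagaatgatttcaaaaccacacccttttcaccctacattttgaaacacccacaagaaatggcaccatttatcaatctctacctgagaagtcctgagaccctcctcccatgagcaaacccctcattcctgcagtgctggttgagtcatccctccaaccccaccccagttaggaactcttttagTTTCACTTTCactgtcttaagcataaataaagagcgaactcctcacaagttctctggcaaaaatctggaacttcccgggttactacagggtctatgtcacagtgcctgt

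Igtp carried 1 ISRE and 1 GAS match, Irgm1 2 overlapping ISRE matches, Gbp7 1 ISRE and 2 GAS matches, and Gbp2 1 ISRE match. All of these matches lay inside a peak. The first base of the ISRE match was at position −34 in Igtp, −53 in Gbp7 and −59 in Gbp2, counted from the start, with negative positions upstream. In Irgm1 the 2 matches began at −30 and −24, and lay 1418 and 1424 bp from the nearest summit, the base of highest enrichment in a peak.

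Shown next are the promoters of the 4 motif-bearing genes that lacked a peak at an end: Adar at chr3:89730468-89730767 on the plus strand, Ifit2 at chr19:34550444-34550743 on the plus strand, Ifitm2 at chr7:140955912-140956211 on the minus strand and Samhd1 at chr2:157135047-157135346 on the minus strand. They serve as the counterpart of the first 4 only in lacking a peak at an end, with the same use of capitals.
Adar: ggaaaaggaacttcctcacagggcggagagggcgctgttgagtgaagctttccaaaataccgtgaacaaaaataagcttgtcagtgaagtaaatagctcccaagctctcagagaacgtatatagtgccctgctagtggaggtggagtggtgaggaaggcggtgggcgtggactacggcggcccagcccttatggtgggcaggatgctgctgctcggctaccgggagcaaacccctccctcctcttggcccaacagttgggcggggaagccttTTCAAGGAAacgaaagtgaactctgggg
Ifit2: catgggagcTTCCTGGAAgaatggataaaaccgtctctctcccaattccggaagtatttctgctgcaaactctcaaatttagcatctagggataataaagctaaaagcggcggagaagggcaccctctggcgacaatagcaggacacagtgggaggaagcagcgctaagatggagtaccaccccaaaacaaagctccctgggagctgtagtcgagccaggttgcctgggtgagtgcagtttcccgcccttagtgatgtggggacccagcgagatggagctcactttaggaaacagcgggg
Ifitm2: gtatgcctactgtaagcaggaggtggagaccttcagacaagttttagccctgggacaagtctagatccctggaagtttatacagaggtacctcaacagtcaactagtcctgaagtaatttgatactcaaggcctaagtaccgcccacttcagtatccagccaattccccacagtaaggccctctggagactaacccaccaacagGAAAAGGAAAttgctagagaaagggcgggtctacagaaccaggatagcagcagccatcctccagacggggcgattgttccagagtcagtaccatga
Samhd1: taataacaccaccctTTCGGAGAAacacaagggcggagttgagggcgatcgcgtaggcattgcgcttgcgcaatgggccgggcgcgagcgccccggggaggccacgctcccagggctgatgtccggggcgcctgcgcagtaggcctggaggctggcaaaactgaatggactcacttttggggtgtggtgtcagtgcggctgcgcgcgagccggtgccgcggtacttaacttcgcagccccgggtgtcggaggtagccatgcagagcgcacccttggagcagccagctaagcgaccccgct

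Ifitm2 and Samhd1 had a motif and no peak at the start. The nearest peak was 13042 bp from the start of Ifitm2 and 3807 bp from that of Samhd1. The Adar and Ifit2 starts shown did have a peak within 1 kb, which lay too far inside the gene to count as a peak at an end. The GAS match of Adar lay inside its peak, and that of Ifit2 lay outside.

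Over all 18 genes there were 27 ISRE matches, some of them overlapping. They spanned positions −222 to +41, and 20 had their first base within 150 bases upstream of the start. A peak covered 21 of the 27 matches, in 13 genes. The median distance to the nearest summit, the base of highest enrichment in a peak, was 182 bp. The following stretches show the match in capitals with 8 bases on either side. Those of Isg15, Bst2, Oas1a, Eif2ak2 and Ifih1 lay inside a peak, whereas those of Stat2, Rsad2, Ifit1 and Ifit3 read on the other strand and lay outside a peak except in Ifit1.
Isg15: aggaaaagGAAACCGAAAcagaaaat
Bst2: aggaaaatGAAACTGAAAggctgcag
Oas1a: gggaaatgGAAACTGAAAatctactt
Eif2ak2: tccgccggGAAAACGAAAcagaagag
Ifih1: agagaatcGAAACAGAAAccgatctg
Stat2: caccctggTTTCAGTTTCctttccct
Rsad2: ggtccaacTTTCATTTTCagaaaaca
Ifit1: agtctcagTTTCAGTTTCtcactgct
Ifit3: taagtctgTTTCAGTTTCtactttcc

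The Isg15 stretch is the middle one of 3 overlapping matches, which together span positions −78 to −57, and its GAAA units follow each other at a fixed spacing. Bst2, Oas1a and Gbp3 carried 2 overlapping matches each. Of the 18 genes with an ISRE match, 17 had a peak at the start, against 39.5% of all protein-coding genes with such a match. Of the 15 genes without a match, 13 had a peak too. Within these genes the peak at the start was thus nearly as frequent without as with the motif, and over all genes it was 37.9% without the motif.

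**Figure D2:**
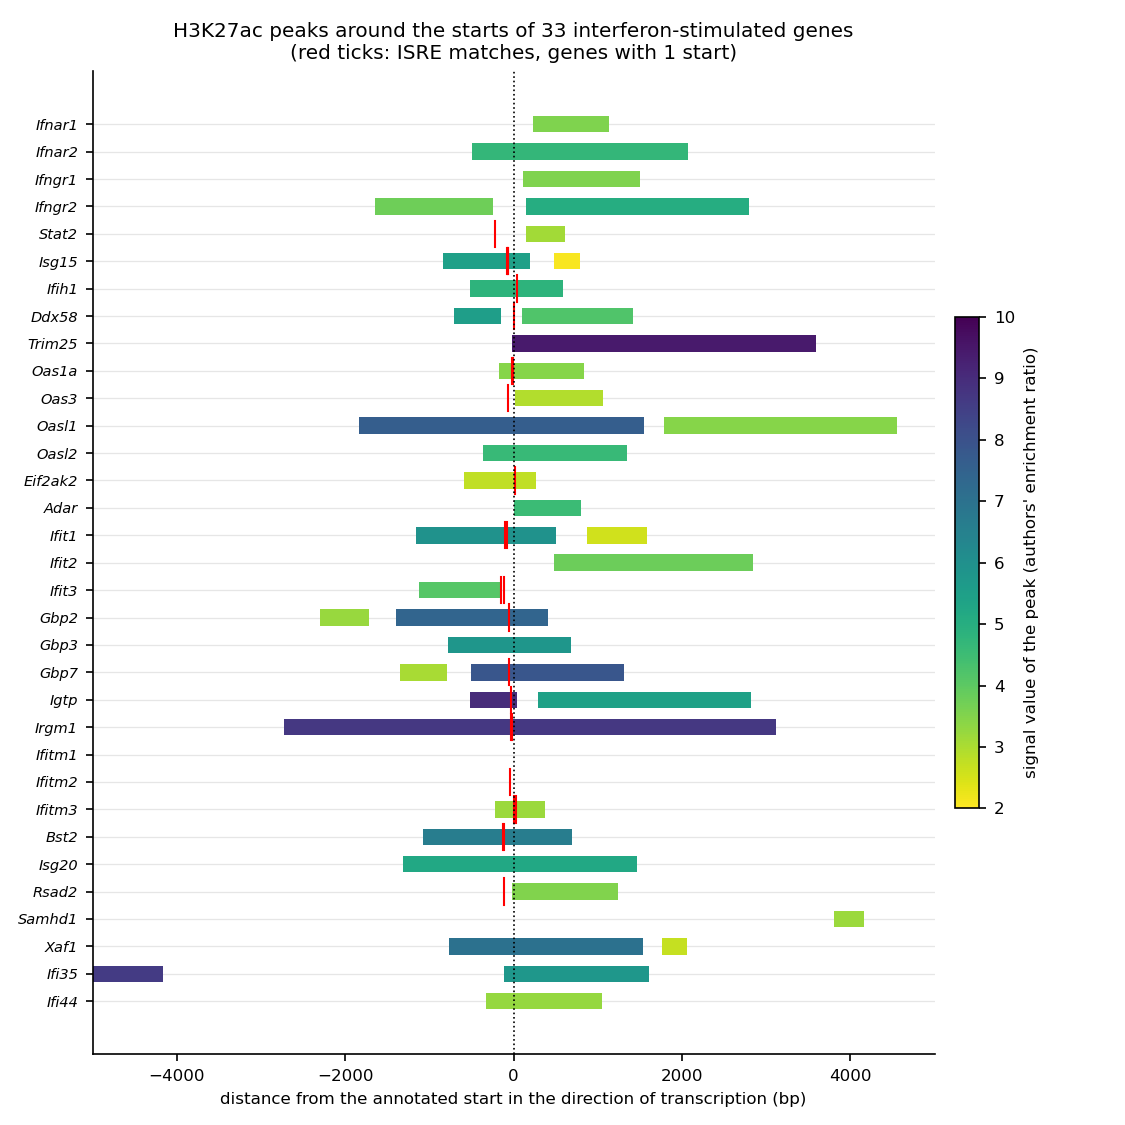
H3K27ac peaks within 5 kb of the annotated start of the 33 genes with a promoter entry, drawn in the direction of transcription (x axis in bp; bars are peaks coloured by signal value, red ticks are ISRE matches in genes with 1 annotated start; for several starts the one nearest a peak is the origin). The start itself lies under a peak in 21 genes, the widest peak around it is that of Irgm1, and the rows of Ifitm1 and Ifitm2 hold no peak.

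The CpG content of the promoters was set beside these shares. CpG observed/expected is the number of CG pairs relative to that expected from the C and G content, and promoters high in it are known to be acetylated in many cell types. Its median was 0.393 (interquartile range 0.238 to 0.636) over the 33 genes and 0.61 (0.236 to 0.849) over all genes with a promoter entry. For a gene with several starts the highest value was taken. In the lowest tercile of all these genes (up to 0.341) 6.34% of protein-coding genes had a peak at a start, but 12 of the 14 interferon-stimulated genes there had one. These 12 were Gbp2, Gbp3, Ifit1, Ifit3, Oasl2, Oas1a, Oas3, Xaf1, Isg20, Rsad2, Ifitm3 and Ifi35, and the 2 without a peak were Ifitm1 and Ifitm2. In the middle tercile 13 of 13 had a peak, against 40.0% of all genes, and in the highest (above 0.779) 5 of 6, against 67.7%. One of these 5, Adar, was placed there by a start with a CpG value of 0.942 and no peak. Its peak lay at another start, with a value of 0.532.

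**Figure D3:**
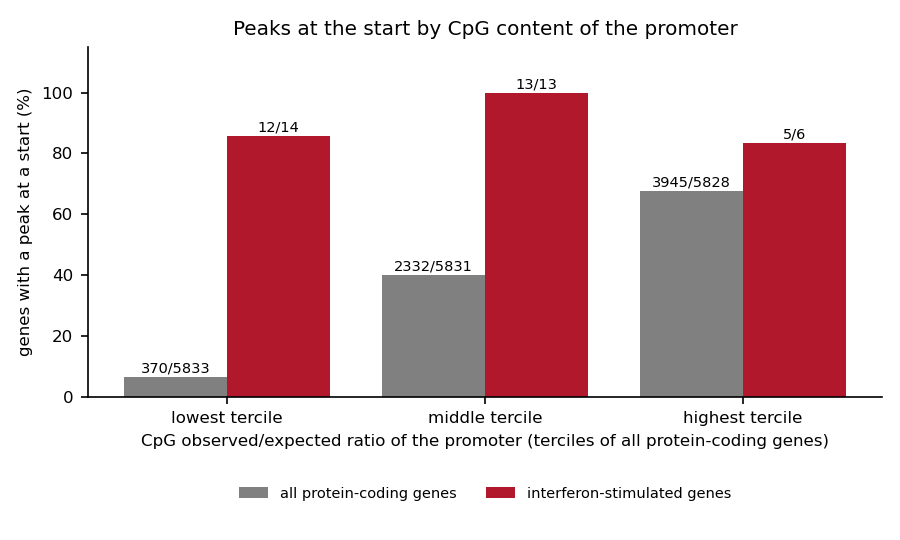
Share of genes with an H3K27ac peak within 1 kb of a start (y axis, %) in terciles of promoter CpG observed/expected, for all protein-coding genes with a promoter entry (grey) and for the 33 interferon-stimulated genes (red), with the counts above the bars. The share over all genes climbs from 6.34% to 67.7%, while that of the interferon-stimulated genes is 12 of 14, 13 of 13 and 5 of 6.

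All 4 receptor genes had a peak at their start. On chromosome 16, 3 of them lie within 193 kb, together with Il10rb. Ifnar2 had a peak over its start (chr16:91372289-91374852, signal value 4.71) and a stronger one at its other end (chr16:91405074-91407900, 5.14), which also reached an end of the neighbouring Il10rb. Ifngr2 had peaks on both sides of its start, with the stronger inside the gene (chr16:91547212-91549861, 2650 bp, 5.05, −log10 q 9.80). Ifnar1 (chr16:91485448-91486351, 904 bp) and Ifngr1 on chromosome 10 (chr10:19592062-19593453, 1392 bp) each had 1 peak of 3.55 with a −log10 q of 3.79. The receptor genes had a median of 4.30, below that of all genes with a peak.

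The 3 genes of signalling and the ISG15 system all had a peak. Usp18, the protease that removes Isg15 from proteins and restrains the type I receptor, had the strongest (chr6:121244738-121245865, 1128 bp, 6.89) and another of 4.44 beside it. Isg15, a ubiquitin-like protein that is attached to other proteins, had 5.48 (chr4:156200625-156201660, 1036 bp), with the summit at −171 bp from the start. Stat2, the STAT of the type I response, had the narrowest peak of the 34 (chr10:128270646-128271109, 464 bp, 3.12), and the peak reached an end of Apof as well.

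The 5 genes of nucleic acid sensing had a peak. Trim25, a ubiquitin ligase of the RIG-I pathway, had 9.46 over 3612 bp (chr11:88999385-89002996, −log10 q 31.3), with the peak running from the start into the gene. Zbp1, which binds Z-form nucleic acids, had 6.12 (chr2:173217787-173219863). Of the 3 RIG-I-like receptor genes, Ddx58, which encodes RIG-I, had 5.54 upstream of its start (chr4:40239979-40240533) and 4.19 downstream of it. Ifih1, which encodes MDA5, had 4.83 (chr2:62645666-62646775). Dhx58, which encodes LGP2, had 3.49 (chr11:100703005-100704130) in a peak that also reached an end of Kat2a. The 5 signal values thus ranged from 3.49 to 9.46.

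The enzymes of double-stranded RNA had a peak in 5 of 7 cases and the lowest median of the roles, 3.46. Oasl1, an OAS-like protein, had 7.65 over 3381 bp (chr5:114921408-114924788, −log10 q 21.6). Its neighbour Oasl2 had 4.6 (chr5:114896566-114898286). The oligoadenylate synthetases, which make the second messenger that activates RNase L, had 3.46 at Oas1a (chr5:120906689-120907700) and 2.93 at Oas3 (chr5:120776593-120777644). Oas2, the neighbour of Oas3, had no peak at an end, and the nearest was 26707 bp away. Eif2ak2, the kinase PKR, had the lowest of the 34 values, 2.78 with a −log10 q of 1.67 (chr17:78882310-78883159).

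Adar, which edits adenosines in double-stranded RNA, had no peak at either end of the gene. A peak of 4.56 (chr3:89730719-89731521) began 1 bp after the third annotated start, which lies inside the gene, and the promoter printed above is that of this start. It counted as a peak at a start and not as a peak at an end, and the nearest peak to an end was 16250 bp away.

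The 3 IFIT genes, whose products bind viral RNA, lie together on chromosome 19. Ifit1 had 5.91 (chr19:34639736-34641396, 1661 bp) with the summit at −471 bp from the start, in a peak that also reached Ifit1bl2. Ifit3 had 4.10 (chr19:34582408-34583392), and the peak ended 137 bp before the start. Ifit2 had a peak of 3.81 (chr19:34551564-34553931) inside the gene that began 476 bp after one of its 2 starts and 1014 bp from the nearest gene end, just outside the 1 kb window.

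The 7 interferon-induced GTPases all had a peak, and with a median of 7.87 they held 5 of the 8 strongest values among the 34 genes. Mx2 had 9.37 (chr16:97534301-97535638, −log10 q 31.3) and Mx1, its neighbour, 4.04 (chr16:97462399-97465190, 2792 bp). Both belong to the family of dynamin-like antiviral GTPases, but they are annotated as transcribed pseudogenes in this assembly. Igtp had 9.0 in a peak of 557 bp upstream of and over its start (chr11:58199042-58199598) and a wider one of 5.42 and 2521 bp inside the gene. Irgm1, which acts with Igtp on vacuoles that hold pathogens, had 8.70 in the widest peak of the 34 (chr11:48868303-48874151, 5849 bp), whose summit was at −1444 bp from the start.

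The guanylate-binding protein genes Gbp7 (7.87, chr3:142529834-142531647), Gbp2 (7.41, chr3:142619269-142621077) and Gbp3 (5.81, chr3:142559268-142560723) lie in 1 cluster of 110 kb. The Gbp2 peak also reached an end of Gbp2b. An ISRE match was found in all 5 GTPase genes with a promoter entry, Gbp2, Gbp3, Gbp7, Igtp and Irgm1.

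Of the 4 membrane restriction factors 2 had a peak. Bst2, or tetherin, which holds budding virions on the cell surface, had 6.64 (chr8:71536777-71538547, 1771 bp, −log10 q 17.1). The Ifitm genes, whose products block fusion of virus with the cell membrane, lie together on chromosome 7. Ifitm3 had 3.21 in a peak of 600 bp (chr7:141010370-141010969), with the summit at −15 bp from the start and both ISRE matches under it. Ifitm1 and Ifitm2 had none, with the nearest peak 17496 and 11918 bp from an end.

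Of the 8 other effectors 6 had a peak. Parp14, a mono-ADP-ribosyltransferase, had the strongest of the whole list of genes (chr16:35868465-35872478, 4014 bp, 9.92, −log10 q 34.3). Xaf1, a pro-apoptotic partner of XIAP, had 7.01 (chr11:72300858-72303161, 2304 bp). Ifi35 had 5.78 (chr11:101448295-101450016) and Isg20, an RNA exonuclease, 5.20 (chr7:78912111-78914888, 2778 bp) in a peak that also reached an end of Aen. Rsad2, or viperin, which makes a chain-terminating nucleotide, had 3.52 (chr12:26455208-26456465), and Ifi44 had 3.27 (chr3:151748861-151750232).

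Samhd1, which degrades the building blocks of DNA, and Rtp4 had no peak at an end. A peak of 3.21 lay inside Samhd1, 3807 bp from its start. Rtp4 had a strong peak inside its annotated span, chr16:23608855-23611510 with 8.11 and a −log10 q of 24.4, and a weaker one of 3.18 beside it ended 2167 bp from the end of the gene, so both were outside the 1 kb window. Counting the whole gene with 1 kb on either side, 38 of the 41 genes had a peak, against 43.8% of all protein-coding genes. Those without were Oas2, Ifitm1 and Ifitm2.

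**Figure D4:**
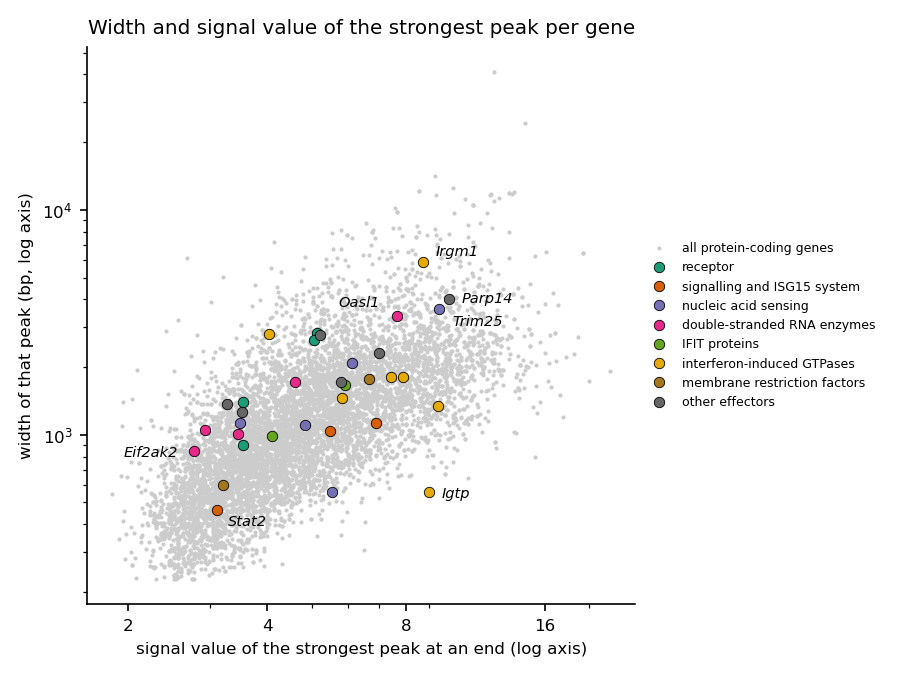
Width against signal value of the strongest peak at an end, both on log axes, for the 34 interferon-stimulated genes with a peak (coloured by role) and all 7929 protein-coding genes with one (grey). The coloured points lie within the grey cloud, from Eif2ak2 at 2.78 and Stat2 at 464 bp to Irgm1 at 5849 bp and Parp14 at 9.92.

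The summit lay upstream of the start in 11 of 30 interferon-stimulated genes, beside 30.4% of all strongest peaks at a start, and its median position was 160 bp downstream of the start against 273 bp. More than 1 peak at their ends was found for 10 genes (Ifnar2, Ifngr2, Isg15, Usp18, Ddx58, Ifit1, Mx1, Mx2, Gbp7 and Igtp), beside 24.0% of all genes with a peak. The weaker end peaks of Isg15 (signal value 2.08), Ifit1 and Mx1 (2.57 each) had q-values above 0.05. In 7 genes the strongest peak also reached an end of another protein-coding gene, and such a peak cannot be given to either gene: besides those named above this held for Eif2ak2 and Gm26637.

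Distal peaks, with a summit over 1 kb from every protein-coding gene end, lay within 50 kb of 27 of the 41 genes (65.9%), against 44.7% of all protein-coding genes. The median was 1 per gene against 0. These counts include peaks that reach a gene's own end window with a summit farther off, and the end peaks of Mx1 and Mx2, since these are not protein-coding. Without a gene's own end peaks, 25 genes had a distal peak, against 43.8% of all protein-coding genes. Counted in this way, Ifnar1 had the most, 8, followed by Ifit2 with 7, Ifit3 with 6, Ifit1 and Ifnar2 with 4 each, and Ifngr1 and Dhx58 with 3 each. Some of these peaks were weak, and those of Ifnar1 included q-values of 0.395, 0.159 and 0.0604. With own end peaks included, 26 genes had a distal peak at a q-value of at most 0.05, against 40.4% of all protein-coding genes. The 27 genes had 52 different distal peaks in all, of which 12 were within reach of more than 1 of the genes and 24 had one of the 41 as the nearest protein-coding gene.

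The strongest distal peak lay in the receptor cluster (chr16:91536869-91539602, 9.95, −log10 q 34.3), with its summit 8.56 kb upstream of Ifngr2 and 28.0 kb from Ifnar1. The distal peak near Parp14 (chr16:35918164-35919703, 9.46) was nearest to Dtx3l. In the receptor cluster, measured from the first to the last gene with 1 kb on either side, 15 peaks covered 12.8% of the sequence. In the Ifit cluster 11 peaks covered 12.3% of the sequence, whereas the Oas cluster had 3 peaks over 179 kb and the Ifitm cluster 2 over 57.9 kb. The whole genome had 0.843 peaks per 100 kb.

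Other genes of the interferon pathway, 45 in a list of roles, had a peak at an end in 32 cases (71.1%). None of the 6 interferon genes (Ifnb1, Ifng, Ifna1, Ifna4, Ifnk and Ifne) had one. The kinases and STATs had 4 of 5, with Stat3 at 9.80 and Jak1 at 7.81, and none at Tyk2. Of the interferon regulatory factors 5 of 6 had a peak, from Irf3 at 3.58 to Irf2 at 7.53, and Irf5 had none. Sensors and adaptors had 9 of 12, led by the kinase Tbk1 at 9.73, with none at Cgas, Tlr7 and Tlr9. The Tbk1 peak also reached an end of Xpot, the gene nearest to its summit, and the Irf3 peak an end of Bcl2l12. The strongest peaks of Irf9, Myd88 and Pias1 reached ends of Rnf31, Acaa1a and Calml4. These peaks cannot be given to either gene. Negative regulators had 4 of 6, with Socs1 at 5.42 and none at Socs3 and Ptpn6.

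All 10 genes of MHC class I presentation, which interferon induces in most cells, had a peak. Tap1 and Psmb9 shared their strongest peak (7.77), and that of Psmb8 also reached an end of Tap1. Those of Tapbp and Psmb10 reached ends of Zbtb22 and Lcat. Such peaks cannot be given to a single gene, so the 10 genes do not stand for as many separate peaks. B2m, the light chain of MHC class I, had 14.88, above every one of the 34 interferon-stimulated genes, and H2-K1 and H2-D1, heavy chains, had 9.83 and 8.02.

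**Figure D5:**
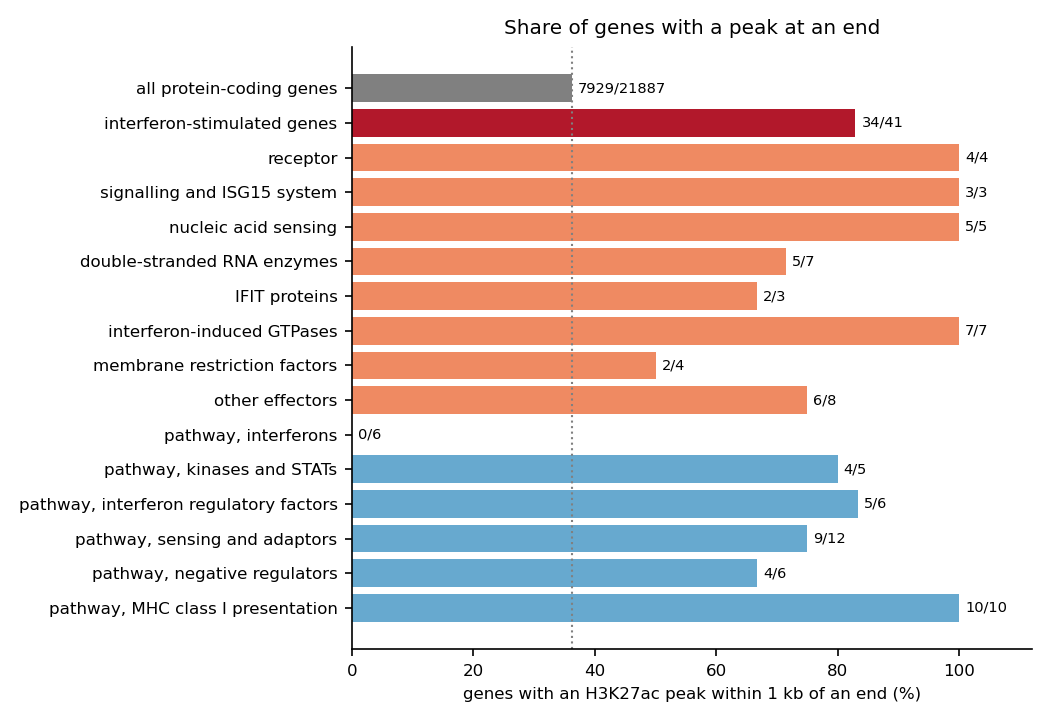
Share of genes with an H3K27ac peak within 1 kb of an end (x axis, %) for all protein-coding genes (grey, dotted line at 36.2%), the 41 interferon-stimulated genes (dark red) and their roles (orange), and the other pathway genes by role (blue), with the counts beside the bars. Receptors, sensing genes, GTPases and MHC class I genes reach their full count and the interferon genes are at 0 of 6.

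At a −log10 q of at least 5, 24 of the 41 genes kept a peak at an end, against 24.0% of all protein-coding genes, and the 10 that did not were Ifnar1, Ifngr1, Stat2, Dhx58, Oas1a, Oas3, Eif2ak2, Ifitm3, Rsad2 and Ifi44. How reads shared by near-identical copies, such as the Ifitm and Oas1 genes, were handled is not given in the sources used here, so an absent peak in these families is uncertain.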

How the data were processed

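H3K27ac was measured in 4 libraries of 1 genotype with 1 input library. The submitters' processing notes name BWA, MACS2 and the build mm10, with no version, setting or role. The deposited peak list covers the libraries jointly, is called an overlap set in its name and has no header. Its columns, in the usual order of this format, are the authors' score, a signal value that is the authors' fold enrichment ratio, and −log10 p and −log10 q as deposited. The build was checked by position: 32.5% of summits fell 1 kb or less from a protein-coding gene end, against 5.36% and 5.55% after a shift of 50 kb to either side.

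A peak was at an end when it overlapped, by at least 1 base, a window reaching 1 kb to both sides of a gene end in the RefSeq table of GRCm38.p6. Starts and strands came from RefSeq promoter entries of that build. For a gene with several starts, any start counted and the highest CpG value was used. Sting1 and Cgas matched under the older symbols Tmem173 and Mb21d1. Genes were counted with Python 3.11.15, pandas 2.3.3 and numpy 2.4.6, and the assignment was tested on simulated peaks. Wilson intervals cover counting error over genes only. No p-value was computed, since the list does not separate libraries, and genes are not replicates. Total read counts were not used here.

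The members, roles and other lists were chosen with earlier results of these data known. Named were all members, the 5 strongest other pathway genes and those without a peak; further names were picked with their values in view. Some genes of the marker and pathway lists are not reported here. Promoters shown were those of up to 4 motif-bearing members with the strongest peak at the start and the first 4 by name without a peak at an end. Alternatives changed the q-value and signal thresholds, windows, overlap, distance, merging and motif.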

Additional observations from a re-analysis of the deposited data

How the results depend on the processing

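Of 58 alternatives, 6 were chosen after seeing the data; 47 left the value within 1.5 times the count or inside its interval, and 11 moved it. The number of interferon-stimulated genes with a peak at an end ranged from 24 (−log10 q of at least 5, or a signal value of at least 4) to 38 (whole gene and flanks). It stayed at 34 for a q-value of at most 0.05, the 0.5 kb window and 200 bases of overlap, and was 36 for the 2.5 kb window and 32 with the summit in the window. The share of all protein-coding genes was 24.0% at a −log10 q of at least 5, 34.4% at a q-value of at most 0.05, 23.2% at the signal threshold of 4, 39.3% and 33.9% for windows of 2.5 and 0.5 kb, 33.3% with the summit in the window, 35.5% with at least 200 bases of overlap and 43.8% over whole genes and flanks. Genes with a distal peak numbered 27 in the report, 16 at the −log10 q threshold (23.5% of all protein-coding genes), 14 at the signal threshold (22.2%) and 14 when a peak counted only for its nearest gene (23.1%). With peaks within 1 kb merged they numbered 22, against 42.8%. ISRE matches were found in 14 genes with a longer motif, against 0.955% of all genes with a promoter entry. With the last base free there were 21 such genes, against 9.43%. No paired analysis was possible because 1 list covers all libraries jointly, and for the same reason none could be left out. Without replicates or counts, an absent peak shows only that none was called.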

Other observations

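Relatives of the listed genes were matched by symbol after the values had been seen. Over all protein-coding genes 36.2% had an end peak. The Gbp, immunity-related GTPase and Parp counts below include listed genes. Without these, 6 of 7 Gbp, 3 of 5 immunity-related GTPase and 9 of 11 Parp genes had an end peak. Of 10 Gbp genes 9 had an end peak, all but Gbp6. The strongest peak of Gbp2b, with a signal value of 7.41, is the one it shares with Gbp2. Among the others not on the list Gbp5 had 6.18, Gbp9 5.66 and Gbp4 4.77, while Gbp10 had 2.84 and Gbp8 2.29. Of 7 immunity-related GTPase genes 5 had one, with Irgm2 at 8.97, close to Igtp at 9.0, Tgtp2 at 4.68 and Ifi47 at 4.01. Tgtp1, a near-copy of Tgtp2, and Iigp1 had none.

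In the Oas family, 4 of 5 listed genes and 1 of 6 others had a peak (Oas1c, 3.58), and in the Ifitm family 1 of 3 listed genes and 0 of 4 others. Ifit3b, beside Ifit3, had 7.56, above each of the 3 listed Ifit genes. Of 11 Ifi200 genes, which include sensors of DNA, 7 had a peak, the strongest at Ifi203 (5.75). Of 12 Parp genes 10 had one, with Parp12 at 7.93 and Parp9, a neighbour of Parp14, at 6.52.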
